A study of Mus musculus with 10 samples.

Results

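The TRBJ2 segments are the J (joining) gene segments of the second D-J-C cluster of the mouse T cell receptor β locus. Clonotypes were taken as members when their listed J segment was TRBJ2-1, TRBJ2-2, TRBJ2-3, TRBJ2-4, TRBJ2-5 or TRBJ2-7. A clonotype is the combination of V segment, J segment and CDR3 nucleotides. The CDR3 is the complementarity-determining region 3, the loop that the V-D-J junction encodes. These 6 segments were carried by 20651 of the 29481 clonotypes in the 9 TRB libraries, and the other 8830 clonotypes carried TRBJ1 segments. The tenth library of the series held γ chains of WT epidermal T cells and had 0 TRBJ2 clonotypes.

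The series sequenced receptor transcripts of T cells sorted from ear skin and peripheral lymph node. Tcrd-/- mice (B6.129P2-Tcrdtm1Mom/J) lack the receptor δ chain and therefore γδ T cells, and WT mice were C57BL/6-N/Crl. The TRB groups were epidermal Tcrd-/- cells sorted as CD45+CD3hiTCRβhi, which the labels call DETC (3 libraries, A to C), bulk dermal Tcrd-/- cells sorted as CD45+CD3+TCRβ+ (2 libraries, A and B), CD103hi and CD103+ sorts of dermal Tcrd-/- cells (1 library each), dermal WT cells (1 library) and Tcrd-/- lymph node cells (1 library). Each library was 1 pool of cells from 5 to 18 animals, so no value per animal exists and p-values measure the spread between pools. A Tcrd-/- mouse lacks δ chains in all its cells, including those of its lymph nodes.

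A β chain gene is assembled in the thymus in 2 steps. A D segment first joins a J segment, and a V segment then joins the DJ product. Nucleases trim the segment ends, hairpin opening can leave a few palindromic (P) bases beside an untrimmed end, and terminal transferase adds non-templated (N) bases, an enzyme that is scarce in the fetal thymus. TRBD1 lies upstream of both J clusters and can join either, while TRBD2 lies between the clusters and joins TRBJ2 by deletion.

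In the GRCm38 annotation the TRBJ2 segments lie on the plus strand of chromosome 6, downstream of TRBD2 (41542163 to 41542176) and upstream of TRBC2 (41546730 to 41548352). Their germline sequences are shown because each clonotype keeps the 3′ part of 1 of them, and because their lengths and first bases bear on CDR3 length, trimming and P bases below. Sequences are from GENCODE vM21 transcripts. Capitals mark the part inside the CDR3, up to the conserved phenylalanine codon, and lower case the part after it.
TRBJ2-1, chr6:41542754-41542803: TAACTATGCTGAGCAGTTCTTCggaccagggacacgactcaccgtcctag
TRBJ2-2, chr6:41542957-41543007: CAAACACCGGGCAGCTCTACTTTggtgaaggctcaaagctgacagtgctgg
TRBJ2-3, chr6:41543223-41543271: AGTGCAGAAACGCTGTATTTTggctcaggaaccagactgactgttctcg
TRBJ2-4, chr6:41543362-41543410: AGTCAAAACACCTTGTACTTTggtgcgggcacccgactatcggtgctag
TRBJ2-5, chr6:41543453-41543501: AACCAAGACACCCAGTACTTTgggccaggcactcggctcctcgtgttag
TRBJ2-7, chr6:41543810-41543856: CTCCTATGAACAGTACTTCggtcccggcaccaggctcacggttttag
The CDR3 part was longest in TRBJ2-2 (23 bases) and shortest in TRBJ2-7 (19 bases). It was 22 bases in TRBJ2-1 and 21 bases in each of TRBJ2-3, TRBJ2-4 and TRBJ2-5. TRBJ2-6 is annotated as a pseudogene between TRBJ2-5 and TRBJ2-7, and 0 clonotypes were listed with it.

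Library totals ran from 31823 to 189162 reads. The lymph node library spread 52498 reads over 26693 clonotypes, whereas the skin libraries held between 72 and 702 clonotypes. With 3 counts as the upper limit of an unseen clonotype, a share of 0 could hide up to 0.00943% of reads in CD103hi, the shallowest library. Clonotypes seen in a single read were between 27.9% (WT dermis) and 52.6% (lymph node) of TRBJ2 clonotypes. In the skin libraries between 16 and 36.7% of these single-read TRBJ2 clonotypes differed from the germline J in the last 9 CDR3 bases. Among skin TRBJ2 clonotypes with at least 100 reads the share was between 0 and 1.14%. Values are therefore also given for clonotypes with at least 10 reads where they differ. Libraries of the same name set in the labels shared between 6 and 64 TRBJ2 clonotypes. Epidermal B and the CD103+ sort shared 64, of which 49 were traces, with under 1% of the share they had in the other library. Traces were 17 of 20 between epidermal A and dermal A, but 4 of 27 between epidermal A and lymph node and 2 of 19 between CD103hi and CD103+. Epidermal C and WT dermis shared 22, or 43.1% of the TRBJ2 clonotypes of epidermal C and 4.41% of those of WT dermis.

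TRBJ2 segments made up most clonotypes in every library. Their clonotype share was 75.8, 79.1 and 70.8% in epidermal A, B and C, 73.2 and 77.9% in dermal A and B, 70.0% in CD103hi, 67.5% in CD103+, 71.1% in WT dermis and 69.8% in lymph node. Epidermal and bulk dermal Tcrd-/- libraries overlapped, with means of 75.2% ± 4.15 (SD, n = 3) and 75.6% ± 3.35 (SD, n = 2). Read shares also overlapped, with an epidermal mean of 75.4% ± 4.73 (SD, n = 3) and a dermal mean of 73.2% ± 4.94 (SD, n = 2).

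In lymph node, the deepest clonotype sample, TRBJ2-7 was the segment used most, at 18.4% of clonotypes (Wilson 95% interval 18.0 to 18.9%). TRBJ2-5 followed at 14.0% (13.6 to 14.5%) and TRBJ2-1 at 12.8% (12.4 to 13.2%). TRBJ2-3 at 9.56% (9.21 to 9.92%) and TRBJ2-4 at 9.48% (9.14 to 9.84%) could not be ordered within their intervals. TRBJ2-2 was the lowest at 5.51% (5.24 to 5.79%). Intervals here and below cover counting error only, since no molecular identifiers are named and several reads can copy 1 molecule. By reads the lymph node order was nearly the same, with 18.5% for TRBJ2-7 and 5.40% for TRBJ2-2. TRBJ2-7 had the highest clonotype share in 6 of the 9 libraries and shared the top place with TRBJ2-1 in epidermal A, where each had 69 clonotypes. TRBJ2-2 had the lowest clonotype share in 7 of 9 libraries.

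**Figure D1:**
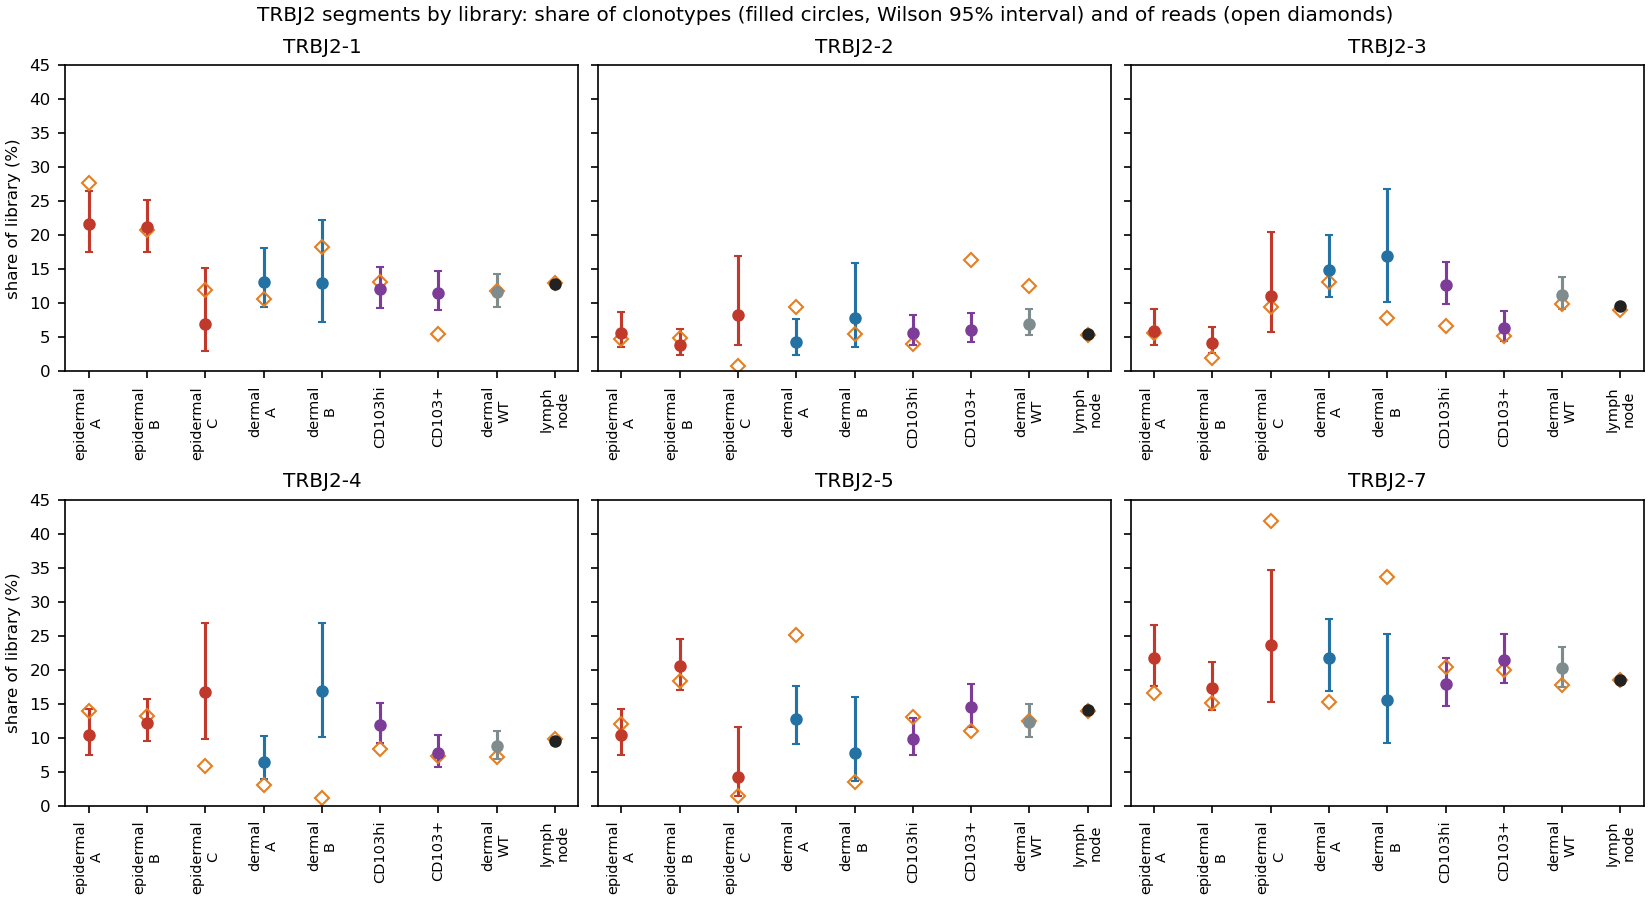
Share of each TRBJ2 segment in the 9 TRB libraries, with filled circles for the percentage of clonotypes (lines are Wilson 95% intervals) and open diamonds for the percentage of reads. TRBJ2-3 circles of the 3 epidermal libraries lie below both dermal ones, and TRBJ2-7 read shares reach 41.9% in epidermal C and 33.6% in dermal B.

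The replicated comparison of the design was between epidermal and bulk dermal Tcrd-/- cells. Of 11 TRBJ segments tested by clonotype counts, 0 had an adjusted p under 0.05 in edgeR's quasi-likelihood test with Benjamini-Hochberg adjustment (0% of the segments tested), so 0 of the 6 TRBJ2 segments did. At an unadjusted p under 0.05 there were 2 of 11 segments, 1 of them TRBJ2-3, and DESeq2 called 0. By read counts 0 of 12 segments passed (0%), 0 had an unadjusted p under 0.05 and DESeq2 called 0.

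TRBJ2-3 had the lowest p among the members. Its clonotype share was 5.97, 4.14 and 11.1% in epidermal A, B and C, against 14.9 and 16.9% in dermal A and B. Every epidermal value lay below both dermal values, as was so for 9.09% of the 11 segments (1 of them, TRBJ2-3 itself). The means were 7.07% ± 3.61 (SD, n = 3) and 15.9% ± 1.41 (SD, n = 2), and the log2 fold change was -1.38 (SE 0.60) with an edgeR adjusted p of 0.150. This p depends on how the test models spread, and the edgeR adjusted p was 0.0561 with no trend of the quasi-dispersion over abundance. Its adjusted p ranged from 0.00463 to 0.938 over 18 other settings and was under 0.05 in 4 of them, among them 0.00463 with clonotypes of at least 10 reads, 0.0217 without trace clonotypes and 0.0438 without epidermal C. The fold change was negative in all 18. Within the name sets that hold both tissues, the difference was -8.92 percentage points between epidermal A and dermal A and -5.77 between epidermal C and dermal B. Single libraries had 12.7% in CD103hi, 6.30% in CD103+ and 11.3% in WT dermis. By reads the epidermal and dermal shares of TRBJ2-3 overlapped, with an edgeR adjusted p of 0.879. They were 5.68, 1.98 and 9.45% in epidermal A, B and C, against 13.1 and 7.81% in dermal A and B.

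TRBJ2-1 had 21.7 and 21.1% of clonotypes in epidermal A and B but 6.94% (5 of 72 clonotypes) in epidermal C, against 13.2 and 13.0% in dermal A and B. Epidermal C thus lay below, and the other epidermal libraries above, every other library, whose values ran from 11.6% in CD103+ to 13.2% in dermal A. The log2 fold change was 0.46 (SE 0.49) with an edgeR adjusted p of 0.955. Without epidermal C it was 0.70, with an adjusted p of 0.0394. Over its 18 other settings the adjusted p ran from 0.0394 to 0.980.

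TRBJ2-5 also spread widely between the epidermal libraries, at 10.4, 20.5 and 4.17% of clonotypes in A, B and C, around 12.8 and 7.79% in dermal A and B. TRBJ2-4 had 10.4, 12.2 and 16.7% in epidermal A, B and C, against 6.38 and 16.9% in dermal A and B. TRBJ2-7 had 21.7, 17.2 and 23.6% in epidermal A, B and C, against 21.7 and 15.6% in dermal A and B. TRBJ2-2 had 5.66, 3.91 and 8.33% in epidermal A, B and C, against 4.26 and 7.79% in dermal A and B. For these 4 segments the epidermal and dermal values overlapped, and their edgeR adjusted p-values by clonotypes were between 0.955 and 0.963.

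Read shares depended on a few large clonotypes in the skin. The read share of TRBJ2-4 was 13.9, 13.2 and 5.81% in epidermal libraries A, B and C, against 3.04 and 1.12% in dermal A and B. The groups did not overlap, with epidermis higher, as for 2 of 12 segments (16.7%). The log2 fold change was 2.40 (SE 1.51) with an edgeR adjusted p of 0.826. The read share of TRBJ2-2 was 4.78, 4.94 and 0.727% in epidermal libraries A, B and C, against 9.48 and 5.46% in dermal A and B. Here epidermis was lower without overlap, as for 8.33% of the segments, at a log2 fold change of -1.10 (SE 1.60) and an edgeR adjusted p of 0.879. In epidermal C 1 clonotype made up 99.7% of TRBJ2-1 reads, and in dermal A 1 clonotype made up 53.9% of TRBJ2-5 reads. In lymph node the largest clonotype of the segment held 1.93% of TRBJ2-1 reads and 0.192% of TRBJ2-5 reads. Of the reads of all TRBJ2 segments, the largest clonotype held 0.359% in lymph node. In the skin libraries it held from 3.72% (WT dermis) to 17.7% (dermal A).

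CDR3s in lymph node were longest on average with TRBJ2-2 and shortest with TRBJ2-7, the segments with the longest and the shortest germline CDR3 part. The mean was 14.5 amino acids for TRBJ2-2, 14.4 for TRBJ2-3, 14.1 for TRBJ2-1, 13.9 for TRBJ2-4, 13.8 for TRBJ2-5 and 13.1 for TRBJ2-7, each with a spread between clonotypes of 1.25 to 1.51 (SD). Between these ends the order was not that of the germline lengths, since TRBJ2-3, with 21 bases, lay above TRBJ2-1, with 22. TRBJ2-7, with the shortest germline CDR3 part, also had the shortest mean in every skin library except epidermal C, where TRBJ2-1 with 5 clonotypes was shorter.

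TRBJ2 CDR3s were shorter in epidermal than in bulk dermal Tcrd-/- libraries. The mean over TRBJ2 clonotypes was 13.1, 13.2 and 13.1 amino acids in epidermal A, B and C, against 14.0 and 14.1 in dermal A and B, and the groups did not overlap. The epidermal mean was 13.1 ± 0.0285 (SD, n = 3) and the dermal mean 14.1 ± 0.0778 (SD, n = 2), a difference of -0.94 amino acids. The pooled SD between libraries was 0.0506, but it rests on few libraries and understates the error of each mean. Between clonotypes the SD was 1.63 in epidermal C (n = 51) and 1.78 in dermal B (n = 60). The difference was -0.89 between the A libraries and -1.02 between epidermal C and dermal B. CD103hi, at 13.1, lay with the epidermal libraries, and CD103+ at 13.7, WT dermis at 13.9 and lymph node at 13.8 lay between the groups. In all 3 epidermal libraries the commonest length was 13 amino acids, at 28.2, 38.1 and 41.2% of TRBJ2 clonotypes in A, B and C. In both dermal libraries it was 15, at 27.9 and 35.0% in A and B, and in the other 4 libraries it was 14. Mean TRBJ1 lengths overlapped, at 13.3, 12.6 and 13.1 amino acids in epidermal A, B and C, against 14.1 and 12.9 in dermal A and B.

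**Figure D2:**
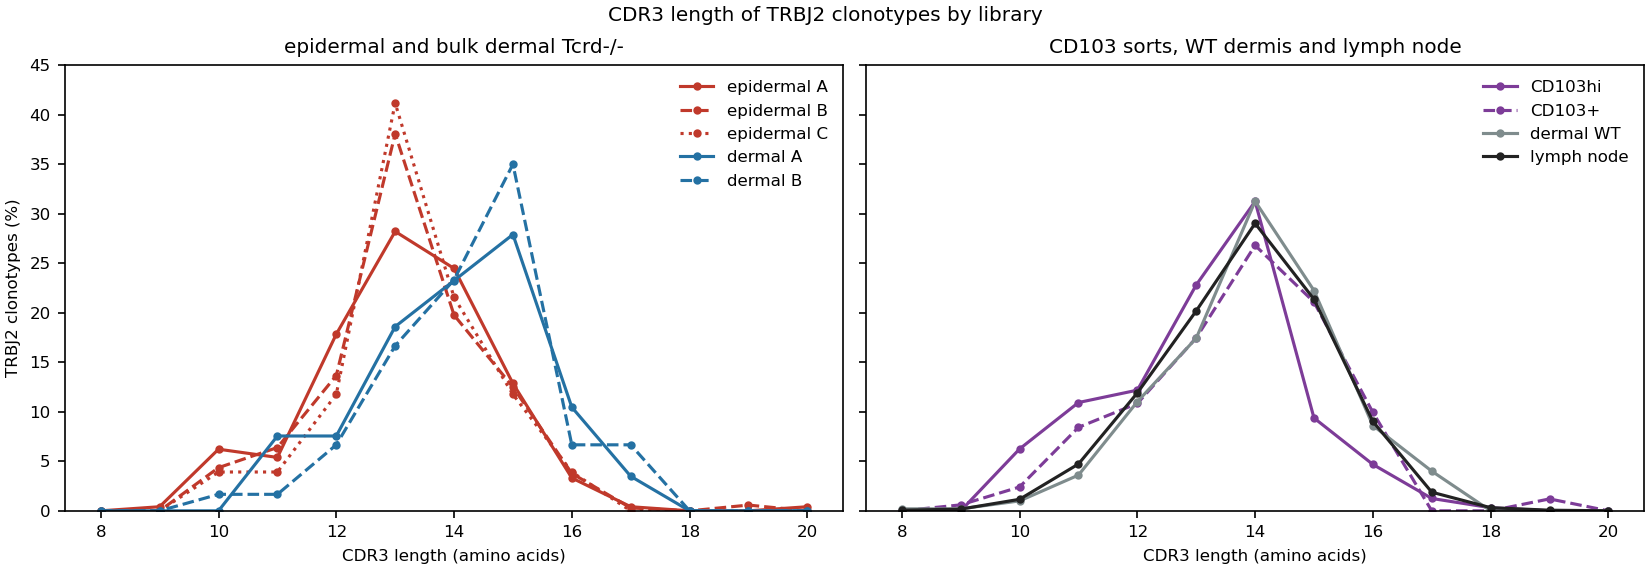
Percentage of TRBJ2 clonotypes at each CDR3 length from 8 to 20 amino acids, 1 line per library. The epidermal lines peak at 13 amino acids, the bulk dermal lines at 15, and the lines of both CD103 sorts, WT dermis and lymph node at 14.

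Per segment, the comparison needed at least 5 clonotypes in each of the 5 libraries, which left 5 members and TRBJ1-2, and it was tested by an exact two-sided permutation test with 10 arrangements, where the smallest p is 0.2. Mean length was lower in all epidermal than in both dermal libraries for TRBJ2-1, TRBJ2-4 and TRBJ2-7, or 50.0% of the 6 segments, each with the smallest possible p and an adjusted p of 0.533. TRBJ2-1 had 13.2, 13.4 and 12.2 amino acids in epidermal A, B and C, against 14.0 and 14.1 in dermal A and B. TRBJ2-4 had 13.1, 13.0 and 13.4 in epidermal A, B and C, against 13.5 and 15.2 in dermal A and B, so that epidermal C and dermal A were nearly equal and dermal B, with 13 clonotypes, lay apart. TRBJ2-5 was left out with 3 clonotypes in epidermal C. Among clonotypes with at least 10 reads, mean length was lower in all epidermal than in both dermal libraries for all 6 members, as for 77.8% of the 9 TRBJ segments found in each of these libraries, though with as few as 1 clonotype in a library.

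Trimming of the J end, counted as germline J bases missing from the junction side of the CDR3, differed between segments. In lymph node the mean was 1.43 bases for TRBJ2-3, 2.20 for TRBJ2-2, 2.36 for TRBJ2-4, 3.01 for TRBJ2-5, 3.37 for TRBJ2-1 and 3.81 for TRBJ2-7. These means use the listed J start. With the kept J read by its match to the germline, the order was the same, from 2.22 bases for TRBJ2-3 to 4.34 for TRBJ2-7. By the listed J start, TRBJ2-3 kept its full germline end in 48.6% of lymph node clonotypes (Wilson 95% interval 46.6 to 50.5%). TRBJ2-1 did so in 14.7% (13.6 to 15.9%). Elsewhere the order was similar at its most trimmed end but varied at the other. The least trimmed member was TRBJ2-2 in dermal A, TRBJ2-4 in dermal B, TRBJ2-5 in epidermal C and TRBJ2-3 in the other libraries. TRBJ2-7 or TRBJ2-1 was the most trimmed member in 8 of 9 libraries, and TRBJ2-5 in CD103hi.

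The trimming profiles of the segments had separate peaks. For TRBJ2-7 in lymph node, 21.8% of clonotypes lacked 4 bases, 20.2% none, 14.9% 7 bases and 0.406% 8 bases. Epidermal TRBJ2-7 clonotypes, pooled over their libraries, lacked 4 bases in 26.1% and 7 bases in 14.9%, against 19.0 and 27.0% of 63 dermal clonotypes. For TRBJ2-1 the commonest value was 3 missing bases in epidermis (28.3%), dermis (31.7%) and lymph node (18.0%). A TRBJ2-1 end short of 9 bases occurred in 12 of 166 pooled epidermal clonotypes (7.23%) and 4 of 41 pooled dermal ones (9.76%). In lymph node it occurred in 25 of 3408 (0.734%). The pooled counts do not show how these few clonotypes spread over the libraries. TRBJ2-3 and TRBJ2-4 most often lacked 0 or 1 base in all 3 sources.

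**Figure D3:**
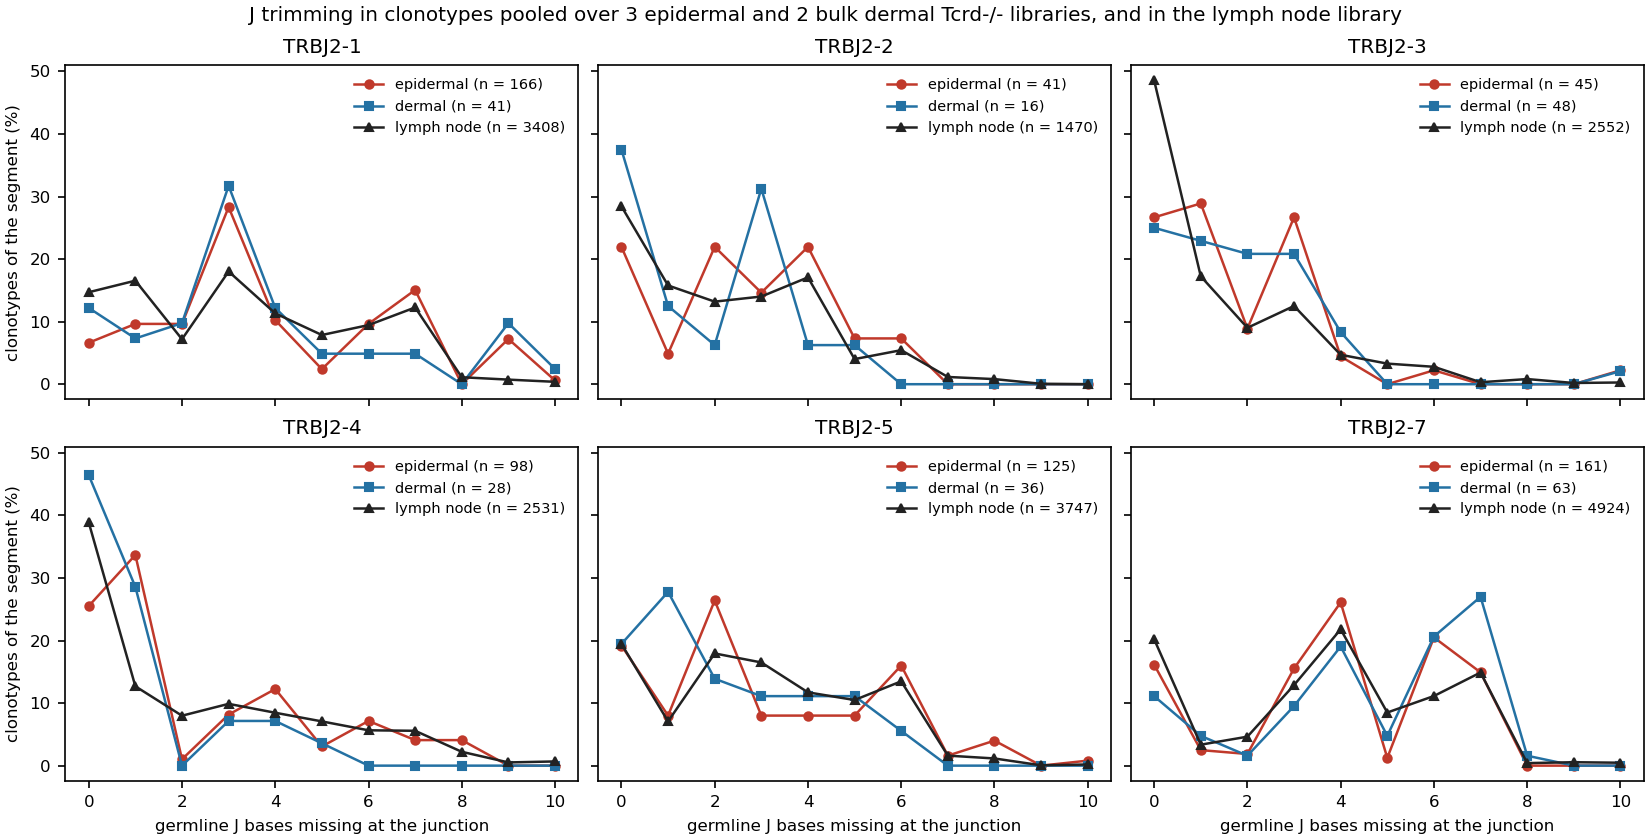
Percentage of clonotypes of each TRBJ2 segment that lack 0 to 10 germline J bases at the junction, for clonotypes pooled over 3 epidermal and over 2 bulk dermal Tcrd-/- libraries and for the lymph node library (n is the number of clonotypes). TRBJ2-3 and TRBJ2-4 peak at 0 or 1 base, TRBJ2-1 at 3, and TRBJ2-7 has peaks at 0, 4 and 6 or 7 bases.

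Over all TRBJ2 clonotypes, mean trimming was 3.53, 3.14 and 4.06 bases in epidermal A, B and C, against 3.11 and 2.57 in dermal A and B. The groups did not overlap, but epidermal B and dermal A lay close to each other. The kept J was also read by its match to the germline, from the 3′ end to the first mismatch, so that a base difference counts as trimming. The groups then overlapped, with 5.73, 6.03 and 4.84 bases in epidermal A, B and C, against 5.34 and 4.35 in dermal A and B. With only clonotypes whose last 9 bases equal the germline J, the listed J start gave a difference of 0.617 bases without overlap. Over all TRBJ2 clonotypes the means by the listed J start were 3.58 ± 0.461 (SD, n = 3) and 2.84 ± 0.385 (SD, n = 2). Single libraries had 3.19 in CD103hi, 2.88 in CD103+, 2.97 in WT dermis and 2.92 in lymph node. No member taken alone had all epidermal values above both dermal ones (0% of 6 segments). Among clonotypes with at least 10 reads TRBJ2-1 and TRBJ2-2 did, as 33.3% of 9 segments did, with 2 and 1 clonotypes in epidermal C. The pooled difference was 0.74 bases, and with the 6 TRBJ2 segments weighted equally it was 0.51 bases. For TRBJ1 clonotypes the epidermal mean was 2.59 bases and the dermal mean 2.74, and the groups overlapped.

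Set against TRBJ1 in the same library, TRBJ2 ends were trimmed more. The mean over the 9 libraries was 3.15 bases for TRBJ2 and 2.60 for TRBJ1, a difference of 0.556 ± 0.649 (SD, n = 9), higher for TRBJ2 in 8 of 9 libraries. The exact two-sided sign-flip permutation test gave p = 0.0117 and 0.0469 after adjustment over 4 measures. It takes the 9 libraries as independent, whereas they form 3 name sets within which clonotypes are shared. The mean difference was 0.308 bases in the set of epidermal A, dermal A and lymph node, 0.364 in that of epidermal B, CD103hi and CD103+, and 0.996 in that of epidermal C, dermal B and WT dermis. The call was lost in 8 of the 9 fits without 1 library (adjusted p of 0.0625 or 0.0938), and the difference was -0.0129 with all segments of a cluster weighted equally. Mean CDR3 length was 13.6 amino acids for TRBJ2 and 13.3 for TRBJ1 (difference 0.244 ± 0.501, SD, n = 9, exact permutation p = 0.176, adjusted 0.352). The TRBJ2 minus TRBJ1 differences in inserted bases (-0.268 ± 0.793, SD, n = 9) and in the share without insertions (0.762 ± 11.3 percentage points, SD, n = 9) had exact permutation p-values of 0.355 and 0.855, adjusted to 0.474 and 0.855.

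Many deposited J assignments began before the germline segment. In lymph node 17.5% of TRBJ2 clonotypes had a J start upstream of the annotated end, and in 34.6% of TRBJ2-3 clonotypes. The base just before an intact J was therefore compared with the base a palindrome of the J end would give. In lymph node it was that base in 71.7% of 1090 TRBJ2-3 clonotypes (Wilson 95% interval 68.9 to 74.2%), a T before the first A shown above. For TRBJ2-5, TRBJ2-4, TRBJ2-2 and TRBJ2-7 it was 64.6, 62.7, 62.6 and 62.4%. TRBJ2-1 was lowest at 41.7% of 434 clonotypes (37.2 to 46.4%), an A before its first T. For TRBJ2-2 and TRBJ2-7 the palindromic base is G. Where G is not that base, it still preceded TRBJ2-3, TRBJ2-4, TRBJ2-5 and TRBJ2-1 in 15.9, 19.5, 16.9 and 23.0%. Bases that the files assign to J beyond its germline end were not counted as insertions, and trimming was set to 0 for them.

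D segments differed between the clusters. TRBD2 was listed in 39.0% of lymph node TRBJ2 clonotypes and in 4.90% of TRBJ1 clonotypes, a combination that deletional joining does not give. TRBD1 was listed in 34.3% of TRBJ2 clonotypes and 26.7% had no D segment. In epidermal A, B and C TRBD1 was listed in 24.5, 14.8 and 33.3% of TRBJ2 clonotypes, against 36.0 and 38.3% in dermal A and B. No D segment was listed in 34.4, 38.7 and 25.5% in epidermal A, B and C, against 18.0 and 25.0% in dermal A and B. The groups did not overlap in either measure, but with no listed D epidermal C (13 of 51 clonotypes) and dermal B (15 of 60) were nearly equal. TRBD2 shares overlapped, with 41.1, 46.5 and 41.2% in epidermal A, B and C, against 45.9 and 36.7% in dermal A and B. TRBJ1 clonotypes had no listed D in 37.7, 61.5 and 38.1% in epidermal A, B and C. In dermal A and B the TRBJ1 values were 36.5 and 29.4%, also without overlap. TRBD1 shares of TRBJ1 clonotypes overlapped, with an epidermal mean of 53.1% and a dermal mean of 64.7%.

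TRBJ2 junctions without any inserted base were more frequent in epidermal than in bulk dermal Tcrd-/- libraries. Their share was 49.0, 49.4 and 35.3% of TRBJ2 clonotypes in epidermal A, B and C, against 16.9 and 13.3% in dermal A and B. The groups did not overlap, but the Wilson 95% interval of epidermal C (23.6 to 49.0%) and that of dermal B (6.91 to 24.2%) overlapped. The means were 44.6% ± 8.03 (SD, n = 3) and 15.1% ± 2.49 (SD, n = 2). The difference was 32.1 percentage points between the A libraries and 22.0 between epidermal C and dermal B. CD103hi had 47.5% (42.1 to 53.0%) and CD103+ 33.4% (28.6 to 38.7%), against 21.2% in WT dermis (17.9 to 25.0%) and 17.2% in lymph node (16.7 to 17.8%). TRBJ1 clonotypes without insertions were 37.7, 35.2 and 42.9% in epidermal A, B and C, against 22.2 and 35.3% in dermal A and B. These TRBJ1 values overlapped. Weighted by reads, the epidermal TRBJ1 mean was 64.4% and the dermal one 13.5%, without overlap.

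Among TRBJ2 clonotypes with at least 10 reads the gap was wider. The share without insertions was 64.9, 56.8 and 65.0% in epidermal A, B and C (n = 111, 146 and 20), against 11.8 and 9.38% in dermal A and B (n = 76 and 32). CD103hi had 52.1% of 119, CD103+ 26.4% of 110 and WT dermis 21.1% of 332. In lymph node 38 TRBJ2 clonotypes reached 10 reads, and 28.9% of them had no insertion. In epidermal C, single-read clonotypes were 25 of 51 and had no insertion in 16%.

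**Figure D4:**
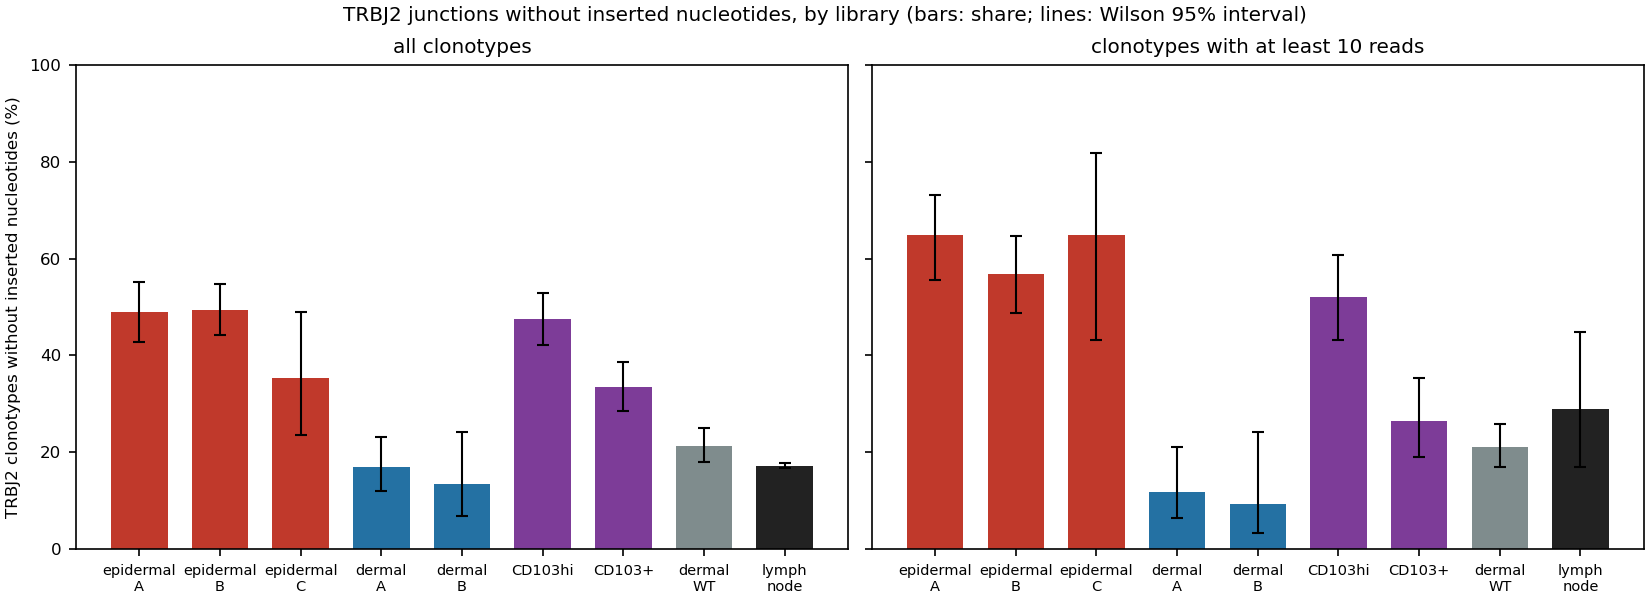
Percentage of TRBJ2 clonotypes without inserted nucleotides in each TRB library, for all clonotypes (left) and for those with at least 10 reads (right), where bars are shares and lines Wilson 95% intervals. The 3 epidermal bars lie between 35.3 and 49.4% on the left and between 56.8 and 65.0% on the right, while both bulk dermal bars lie under 17%.

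The higher epidermal share held for most members. Of the 5 members with enough clonotypes, TRBJ2-1, TRBJ2-2, TRBJ2-4 and TRBJ2-7 had every epidermal value above both dermal ones, which is 66.7% of the 6 segments compared (exact permutation p = 0.2 each, adjusted 0.533). TRBJ2-1 had 53.6, 53.3 and 40.0% in epidermal A, B and C, against 25.8 and 30.0% in dermal A and B. TRBJ2-7 had 46.4, 48.0 and 35.3% in epidermal A, B and C, against 17.6 and 8.33% in dermal A and B. TRBJ2-4 had 42.4, 43.4 and 25.0% in epidermal A, B and C, against 13.3 and 0% in dermal A and B. TRBJ2-3 values overlapped, with 42.1, 16.7 and 37.5% in epidermal A, B and C, against 8.57 and 23.1% in dermal A and B. Among clonotypes with at least 10 reads the groups did not overlap for all 6 members, as for 66.7% of 9 TRBJ segments. A library there held as few as 1 clonotype of a segment. TRBJ2-3 then had 50.0, 33.3 and 50.0% in epidermal A, B and C (n = 6, 9 and 2), against 11.1 and 0% in dermal A and B (n = 18 and 4). Over all clonotypes TRBJ2-3 was the lowest of the 6 in epidermal A and B, dermal A, CD103hi (29.3%) and CD103+ (12.9%). In lymph node it was the highest of the 6 at 20.3% (18.7 to 21.9%). TRBJ2-5, with too few clonotypes to compare, had 48.5 and 58.4% in epidermal A and B and 16.7% in dermal A.

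The mean number of inserted bases over TRBJ2 clonotypes was 2.64, 1.45 and 2.16 in epidermal A, B and C, against 3.52 and 2.73 in dermal A and B. The groups did not overlap, but epidermal A and dermal B lay close to each other. CD103hi had 1.55, CD103+ 2.24, WT dermis 2.54 and lymph node 2.85. Per segment, TRBJ2-4 and TRBJ2-7 had lower means in all epidermal than in both dermal libraries (33.3% of the 6 segments). TRBJ1 means overlapped, at 3.01, 2.45 and 1.62 inserted bases in epidermal A, B and C, against 5.24 and 1.71 in dermal A and B.

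The largest clonotypes illustrate these junctions. They are shown because they carry the read shares above, with the bases the files assign to J in capitals. In epidermal A the largest TRBJ2-5 clonotype joined TRBV13-1 and TRBD1 with 5 J bases trimmed and 0 inserted (12 amino acids, 3.63% of reads). That clonotype was also found in dermal A and lymph node of the same name set. In epidermal C the largest TRBJ2-3 clonotype joined TRBV13-2 and TRBD1 with 3 bases trimmed and 0 inserted (13 amino acids, 6.13%). The largest TRBJ2-1 clonotype of epidermal C joined TRBV29 with no listed D, 4 bases trimmed and 3 inserted (13 amino acids, 12.0%), and was also found in WT dermis of the same name set.
TRBJ2-5, epidermal A: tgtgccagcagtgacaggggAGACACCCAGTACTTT
TRBJ2-3, epidermal C: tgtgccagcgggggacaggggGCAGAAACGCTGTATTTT
TRBJ2-1, epidermal C: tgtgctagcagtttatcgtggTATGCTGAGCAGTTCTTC
In dermal A the largest TRBJ2-2 clonotype joined TRBV13-3 and TRBD2 with a full J end and 7 inserted bases (17 amino acids, 4.80% of reads). In dermal B the largest TRBJ2-7 clonotype joined TRBV13-3 and TRBD1 with 7 bases trimmed and 6 inserted (14 amino acids, 10.7%). The largest TRBJ2 clonotype of dermal A used TRBV13-3, TRBD2 and TRBJ2-5 (15 amino acids, 13.5%), and was also found in lymph node. The files list 25 J bases for it, where the germline part has 21, and 0 insertions.
TRBJ2-2, dermal A: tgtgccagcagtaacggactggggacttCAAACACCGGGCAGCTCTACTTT
TRBJ2-7, dermal B: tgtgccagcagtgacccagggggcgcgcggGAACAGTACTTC
TRBJ2-5, dermal A: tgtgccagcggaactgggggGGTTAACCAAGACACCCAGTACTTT
Of the 12 clonotypes that were largest for their segment in an epidermal or a bulk dermal library, the epidermal ones had CDR3s of 12 or 13 amino acids and the dermal ones of 14 to 17. Between 0 and 3 bases were inserted in the epidermal clonotypes and between 0 and 7 in the dermal ones.

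V pairing was read from lymph node, where every TRBJ2 segment had at least 1470 clonotypes. TRBV13-3, TRBV13-2 and TRBV13-1 were the 3 commonest partners of TRBJ2-1, TRBJ2-3, TRBJ2-4, TRBJ2-5 and TRBJ2-7, and TRBV1 took the place of TRBV13-2 for TRBJ2-2. TRBV13-3 was on 11.7% of TRBJ2-1 and 13.7% of TRBJ2-2 clonotypes, against 12.2% of all clonotypes in the library. Most pairs lay near what independent V and J choice would give. Of 120 pairs of a TRBJ2 segment with a TRBV segment of at least 200 clonotypes, 100 had a ratio of observed to expected clonotypes from 0.8 to 1.25.

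For each TRBJ2 segment the V segments with the highest and the lowest ratio are given. TRBV17 had the highest ratio with TRBJ2-2 (35 clonotypes, ratio 1.61), with TRBJ2-1 (73, ratio 1.45) and with TRBJ2-7 (82, ratio 1.13). TRBV23 was lowest with TRBJ2-2 (4 clonotypes, ratio 0.319) and highest with TRBJ2-5 (47, ratio 1.47). TRBJ2-4 paired most above expectation with TRBV4 (163, ratio 1.40) and most below with TRBV29 (90, ratio 0.711). TRBV31, which lies apart from the other V segments downstream of TRBC2 in the mouse locus, was highest with TRBJ2-3 (182, ratio 1.26) and lowest with TRBJ2-7 (205, ratio 0.734). Lowest ratios were 0.829 for TRBV1 with TRBJ2-1 (226), 0.732 for TRBV26 with TRBJ2-3 (31) and 0.708 for TRBV19 with TRBJ2-5 (113). TRBV26 was on 0.857 to 1.72% of TRBJ2-3 clonotypes (Wilson 95% interval), which includes its library share of 1.66%. The interval of TRBV17 on TRBJ2-7 (1.34 to 2.06%) likewise included its library share of 1.48%. The share of a V segment's clonotypes that used any TRBJ2 ran from 63.3% for TRBV29 (Wilson 95% interval 60.7 to 65.8%) to 81.5% for TRBV17 (77.4 to 85.0%).

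**Figure D5:**
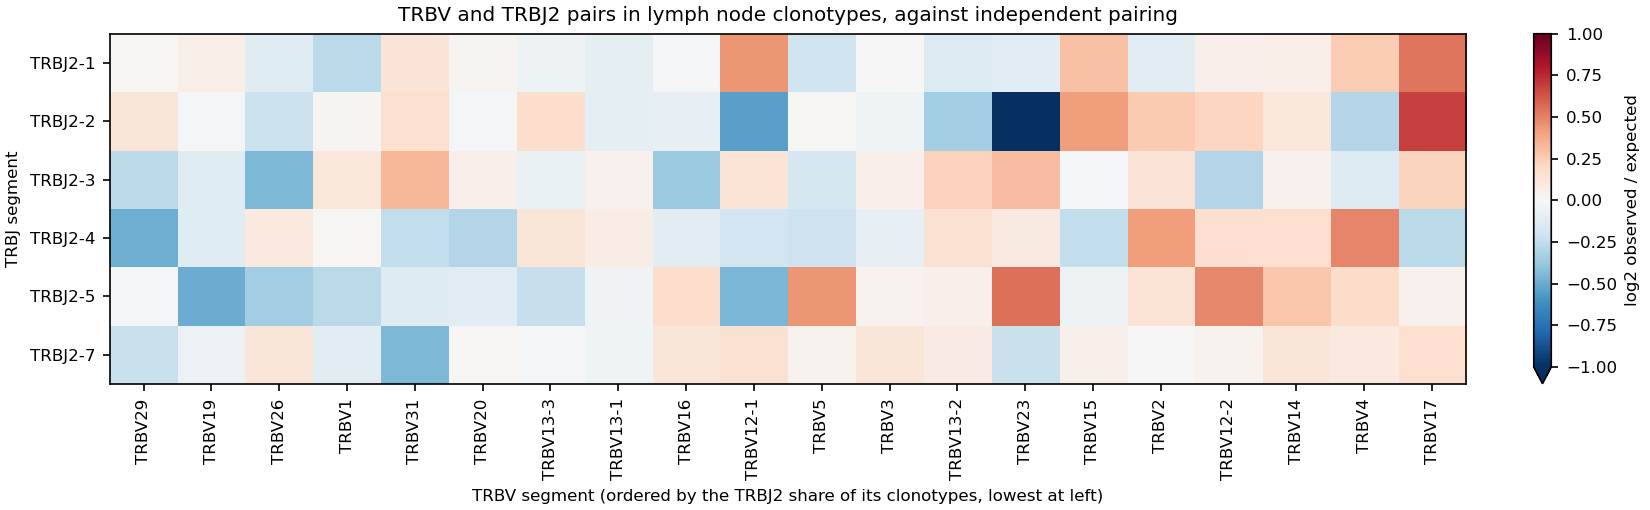
Log2 ratio of observed to expected clonotypes for each pair of a TRBJ2 segment (rows) and a TRBV segment with at least 200 clonotypes (columns) in the lymph node library, where expected counts assume independent pairing within the library. Most cells are pale, TRBV17 with TRBJ2-2 is the deepest red (ratio 1.61) and TRBV23 with TRBJ2-2 lies below the scale (ratio 0.319).

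In the skin the commonest partner of a segment varied between libraries. TRBV13-2 was on 48.5% of the 33 TRBJ2-4 clonotypes of epidermal A and on 75.0% of the 8 TRBJ2-3 clonotypes of epidermal C. It was on 37.1% of the 35 TRBJ2-3 clonotypes of dermal A. TRBV13-3 was on 70.0% of the 10 TRBJ2-2 clonotypes of dermal A. TRBV5 led TRBJ2-3 in dermal B (46.2% of 13), CD103hi (34.5% of 58) and CD103+ (19.4% of 31), and in WT dermis TRBV13-2 led it (29.1% of 79). Over all TRBJ2 clonotypes, TRBV13-2 or TRBV13-3 was the commonest V in every skin library except CD103hi, where TRBV5 was (18.8%), and in dermal B TRBV13-3 tied with TRBV1 (8 of 60 clonotypes each).

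The V segment whose clonotype share followed each TRBJ2 segment most closely over the 9 libraries was sought among 21 TRBV segments. By Spearman's rho it was TRBV31 for TRBJ2-5 (0.95), TRBV13-2 for TRBJ2-7 (0.93), TRBV14 for TRBJ2-1 (0.77), TRBV19 for TRBJ2-4 (0.55), TRBV13-3 for TRBJ2-3 (0.52) and TRBV29 for TRBJ2-2 (0.38). These are descriptions over 9 libraries that share clonotypes and differ in depth, and each is the highest of 21 values.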

How the data were processed

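Receptor transcripts were copied by 5′ RACE, amplified by PCR and sequenced on an Illumina MiSeq, per the labels' protocols. The aligner, clonotype caller and segment reference are not given in the sources used here. Per the file headers, the deposited tables give a read count per clonotype, its fraction of the library, and the CDR3 positions where V, D and J end or start (other whole-number values). No clonotype was removed. Trimming was the germline CDR3 part of J (GENCODE vM21) minus the J bases from the listed J start, at least 0, and insertions were CDR3 bases listed to no segment. Clonotypes, not reads, were averaged unless stated. Segment usage was tested over all TRBJ segments with edgeR 4.0.16 (R 4.3.3), legacy quasi-likelihood fit, offsets from library totals, 1 common dispersion, no TMM factor, at least 10 counts, adjusted p threshold 0.05; scripts were tested on simulated data. Group differences of measures pooled over TRBJ2 are given without a p, by choice: the members were chosen with results known, and an exact permutation of 3 against 2 libraries cannot go under 0.2. The reported fit did not pair libraries by replicate letter. Correlations of segment deviations were 0.277 for A and -0.290 for B, over 12 segments each, too few to decide whether the letters pair libraries. Epidermal A and dermal A are of 1 name set and shared 20 TRBJ2 clonotypes, while epidermal B and dermal B are of different sets and shared 1. The members, lists and tests were chosen with earlier results of these data known. Named partners were the 3 commonest and the extreme V segments in lymph node, and named clonotypes the largest per segment in either tissue, of which some are printed. Alternatives added after the data were seen were trimming with its sign, the edgeR fit without an abundance trend and clonotypes whose last 9 bases equal the germline J.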

Additional observations from a re-analysis of the deposited data

How the results depend on the processing

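Of the comparisons, the TRBJ2 clonotype share, its read share and the TRBJ2 minus TRBJ1 CDR3 length moved by less than the spread between libraries, or stayed on their side of the threshold, under every alternative run. Both shares changed the sign of their epidermal minus dermal difference. By clonotypes it was -0.32 percentage points, but 1.62 with at least 10 reads and 3.08 with the CD103 sorts. By reads it was 2.25, but -0.35 without epidermal A and -1.24 without dermal B. Without dermal A it was 5.74, without overlap. Epidermal minus dermal values kept their sign for length, trimming, insertions and the share without insertions, but the groups overlapped in all 4 with the CD103 sorts in the dermal group, and in trimming with the kept J read by its match to the germline. CDR3 length differed by -1.42 amino acids with at least 2 reads, -1.59 with at least 10 reads, -1.14 without trace clonotypes, -0.60 with the CD103 sorts in the dermal group, -1.52 weighted by reads and -0.81 with equal segment weight, and from -0.99 to -0.88 without 1 library. Trimming differed by 1.22 bases weighted by reads. Insertions differed by -2.15 with at least 10 reads, -0.43 with the CD103 sorts and -1.83 by reads. The share without insertions differed by 39.5 percentage points with at least 2 reads, 51.6 with at least 10, 16.8 with the CD103 sorts and 41.2 by reads.

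Called TRBJ2 segments by clonotypes were 1 with at least 10 reads, 1 without trace clonotypes, 1 with the newer edgeR fit and from 0 to 2 without 1 library (2 without epidermal C), against 0 in the reported fit. With a replicate block 0 were called, by clonotypes (lowest adjusted p 0.0504) and by reads. A block for the library set also gave 0. The cause of these changes was not tested.

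For TRBJ2 minus TRBJ1, the trimming call was lost with complete CDR3s only (0.524 bases), with the germline match (0.246) and with signed trimming (0.453), and the difference ran from 0.356 to 0.643 without 1 library. It was -0.0129 with equal segment weight. The difference in inserted bases was 0.0683 with at least 2 reads and 0.190 with at least 10. That in the share without insertions was -0.583 percentage points with at least 10 reads and -0.0837 by reads, and ran from -0.924 to 3.60 without 1 library.

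Fitted log2 fold changes far from any call also changed sign. By clonotypes, TRBJ2-2 ran from -0.55 to 0.32 without 1 library (0.25 without epidermal B, 0.32 without dermal B) and had 0.031 in DESeq2 and 0.31 with the library set block. TRBJ2-4 ran from -0.44 to 0.96 without 1 library (-0.44 without dermal A). TRBJ2-5 ran from -0.37 (without epidermal B) to 0.75 and had -0.38 with the set block. TRBJ2-7 ran from -0.087 (without dermal B) to 0.39, at -0.0059 without epidermal C, and had -0.049 with the newer fit. By reads, TRBJ2-5 ran from -1.25 to 1.63 (without dermal A), at 0.087 without epidermal C, and had 0.68 with the replicate block. TRBJ2-7 by reads had -0.63 without epidermal C, -0.46 without dermal A, -0.055 in DESeq2 and -0.52 with the replicate block.

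Depth limits the skin values. Epidermal C and dermal B held 51 and 60 TRBJ2 clonotypes, so a segment there rests on 3 to 17. Pools of animals and 1 library in each of 4 TRB groups limit the comparisons. The part of sequencing errors in single-read clonotypes was not tested.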

Other observations

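CDR3s that lacked the first cysteine or the last phenylalanine or tryptophan were between 1.76% (lymph node) and 13.1% (CD103hi) of TRBJ2 clonotypes.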
